A study of Mus musculus with 5 samples.

Results

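Genes that license, start and carry out DNA replication were measured in wild-type mouse tissue from the pharyngeal arches at E10.5. The members were taken from a list of 46 genes, and every probe set annotated to 1 of these genes and to no other was used. This gave 80 probe sets of 44 genes, out of 20380 probe sets of 12393 genes. The remaining 2 listed genes, Gins2 and Chaf1a, had no such probe set in the annotation used here. There were 5 samples in 1 group, each an individual tissue isolate on its own Affymetrix Mouse Genome 430A array, and the tissue is also labelled as containing the second heart field. The embryos were wild type, of 129P2/OlaHsd stock crossed back 2 generations onto C57BL/6, and there was no treatment and no other genotype. Whether the isolates came from separate litters is not stated, so p-values rest on the spread between these isolates only. In the limma fits this spread was drawn toward that of probe sets of like signal. From 10 ng of RNA per isolate, biotin-labelled cDNA was made with NuGEN Ovation amplification kits.

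Replication begins when the origin recognition complex binds DNA and, with Cdc6 and Cdt1, loads the ring-shaped MCM helicase in G1. Geminin blocks reloading once S phase has begun, so that each stretch of DNA is copied once per cycle. The kinase Cdc7 and the GINS complex then turn the loaded rings into moving forks, where primase and the polymerases copy DNA with the sliding clamp Pcna. Many of these genes are transcribed at the entry into S phase under E2F factors. Whole tissue was measured, so a larger share of cycling cells and more RNA per cycling cell cannot be told apart.

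The promoters of the genes were searched for short sequence words, a feature that the choice of genes did not use. RefSeq promoter windows (build GRCm38.p6, 250 bases before to 50 bases after a start) were found by symbol for 37 of the 44 genes. Mcm4, Gmnn, Gins1, Gins4, Prim2, Pole and Rfc2 were not matched. The E2F-type words searched were TTTGGCGC, TTTCCCGC, TTTGCCGC and TTTCGCGC on either strand, and they can overlap each other. They occurred in a window of 14 of 37 genes (37.8%), against 5.24% of 5379 genes above background on the array and 2.66% of 4508 genes not above it. Among genes above background with a GC content at or over the lower quartile of the replication genes (56.33%), the share was 5.67%. Of the 37 genes, 5 (13.5%) held at least 2 matches, namely Mcm3, Mcm5, Mcm6, Mcm7 and Rfc3, against 0.316% of the genes above background. The remaining genes with a match were Orc1, Orc3, Cdc6, Cdt1, Pola1, Pold1, Pole2, Lig1 and Uhrf1. A match is a description of letters in a window, not a measured binding site.

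These stretches lie just before the annotated start and show where the words fell, with the E2F-type words in capitals and, for Pcna, the CCAAT word. All are given 5′ to 3′ on the strand of the gene, 160 bases long except for 100 bases at Orc1. In Mcm6 (chr1:128359706-128359865, minus strand) and Mcm5 (chr8:75109349-75109508, plus strand) words on opposite strands overlapped into 1 run of 12 bases. Cdc6 (chr11:98907991-98908150, plus), Orc1 (chr4:108579354-108579453, plus) and Pola1 (chrX:93632156-93632315, minus) held 1 word each. Pcna (chr2:132253181-132253340, minus) is shown as the clamp gene, with no E2F-type word in its window.
Mcm6: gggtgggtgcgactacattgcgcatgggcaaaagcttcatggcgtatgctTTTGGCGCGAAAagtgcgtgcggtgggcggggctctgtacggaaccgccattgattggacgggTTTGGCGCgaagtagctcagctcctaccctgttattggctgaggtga
Mcm5: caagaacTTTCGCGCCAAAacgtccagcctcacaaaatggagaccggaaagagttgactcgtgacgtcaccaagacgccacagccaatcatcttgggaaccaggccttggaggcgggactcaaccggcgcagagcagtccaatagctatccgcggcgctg
Cdc6: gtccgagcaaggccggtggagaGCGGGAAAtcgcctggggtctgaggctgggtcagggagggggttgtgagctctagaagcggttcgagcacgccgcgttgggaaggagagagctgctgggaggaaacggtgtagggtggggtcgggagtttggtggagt
Orc1: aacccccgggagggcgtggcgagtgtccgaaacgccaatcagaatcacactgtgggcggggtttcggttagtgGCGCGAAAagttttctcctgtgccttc
Pola1: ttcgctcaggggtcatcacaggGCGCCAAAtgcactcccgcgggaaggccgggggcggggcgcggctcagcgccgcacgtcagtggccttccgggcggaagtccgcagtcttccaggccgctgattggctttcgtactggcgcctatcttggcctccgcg
Pcna: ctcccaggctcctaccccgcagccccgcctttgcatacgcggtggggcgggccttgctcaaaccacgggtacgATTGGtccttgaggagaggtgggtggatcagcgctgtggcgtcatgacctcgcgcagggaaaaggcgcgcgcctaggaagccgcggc

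The word CCAAT, bound by NF-Y, was present in windows of 22 of 37 genes (59.5%), against 44.3% of genes above background. The word TTTGAA, the core of an element common in promoters of late cell cycle genes, was present in 4 of 37 (10.8%), against 14.3%. Mitosis genes held the words in other shares. Of the 24 mitosis genes with a window, 3 (12.5%) held an E2F-type word, 20 (83.3%) held CCAAT and 18 (75.0%) held TTTGAA. The 24 other replication genes with a window gave 6 (25%), 8 (33.3%) and 6 (25%), in the same order. The 11 genes of E2F and S-phase control with a window gave 5 (45.5%), 5 (45.5%) and 4 (36.4%), an E2F-type share above that of the licensing and fork genes. No test was made of these shares.

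**Figure D1:**
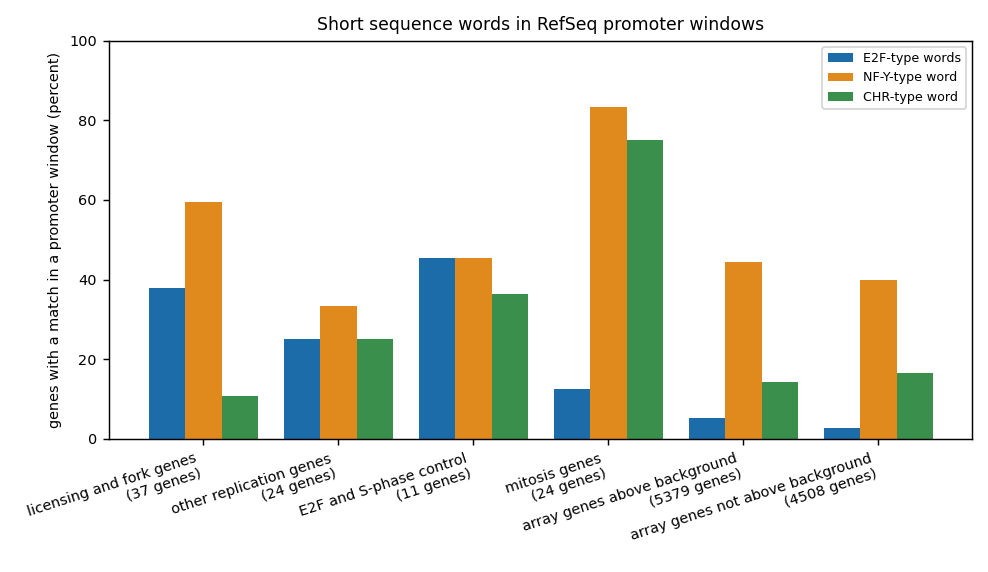
Percent of genes (y axis) with at least 1 match to E2F-type words, to the CCAAT word (NF-Y type) or to the TTTGAA word (CHR type) in a RefSeq promoter window, for 6 sets of genes (x axis, with the number of genes that had a window). E2F-type words stand at 37.8% for the licensing and fork genes at 45.5% for genes of E2F and S-phase control and at 12.5% for mitosis genes, where the CHR-type word stands at 75.0%.

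Several of the genes share a promoter region with a neighbour transcribed the other way. Of 37 genes, 11 (29.7%) had a start on the opposite strand, pointing away, within 1000 bases, against 22.3% of genes above background. The share was 29.2% for the other replication genes, 16.7% for mitosis genes and 9.09% for genes of E2F and S-phase control. Orc3 and Rars2, a mitochondrial arginine tRNA synthetase gene, started 15 bases apart, and Orc1 and the splicing factor gene Prpf38a 118 bases apart. Of the 5 neighbours with a probe set of their own, Rars2 (149 ± 11.5 signal units, SD, n = 5), Prpf38a (1239 ± 275) and Ap4m1 beside Mcm7 (64.7 ± 16.2) were above background. Tmem258 beside Fen1 and Zswim9 beside Lig1 were not. Of all measured genes 53.0% were above background, near the share of these 5 neighbours.

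Signals are in the scaled units of the deposited table, and all means are given ± SD with n = 5. The median signal of an array lay between 28.1 and 32.2. An array's background level was the 95th percentile of 263 probe sets from gene families silent in this tissue, such as olfactory receptors, milk caseins and hair proteins, and it lay between 17.5 and 24.98. A stricter level, between 62.4 and 91.2, came from a wider name pattern that also took in 9 casein kinase and interferon receptor genes. These 9 are not of the silent families, so this level is a higher bar and not a second measure of background. Pearson's r between arrays ran from 0.884 to 0.918 across probe sets, which are not independent replicates. Replicate 4 stood apart in genes of the sex chromosomes, with Xist at 916 against 1.28 to 26.3 in the other samples, and Eif2s3y at 20.1 against 769 to 968. Of 15 markers of arch mesenchyme and the second heart field, 11 were above background, with Crabp1 (2740 ± 355), Isl1 (1387 ± 223) and Prrx1 (1063 ± 216) at the largest excess over background, while Tbx1 (28.2 ± 10.9), Alx4 (18.7 ± 12.6), Dlx5 (16.8 ± 9.73) and Hand2 (8.24 ± 6.602) were not. Of 8 leukocyte markers, limma called 0, at an adjusted and at an unadjusted p of 0.05. Above background were 11 of 12 neuron markers (91.7%), 5 of 9 erythroid (55.6%), 5 of 8 endothelial (62.5%) and 2 of 8 liver and yolk sac markers (25.0%). The share over all genes was 53.0%, so the erythroid and endothelial shares lay near it. At the stricter level the counts were 10, 4, 4 and 0 in the same order, against 33.1% of all genes.

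All 44 measured replication genes were above background, against 53.0% of all genes (limma, one-sided, Benjamini-Hochberg adjusted p below 0.05 over 20380 probe sets, with a gene counted if any of its probe sets passed). Every one of them exceeded the background level on all 5 arrays. The median excess over the level was 3.94 log2 units, beside 0.77 over all genes. Members were chosen with earlier results of these data known, so these contrasts with all genes are a description and not an independent test. At the stricter level 39 of 44 remained, against 33.1% of all genes. At the 99th percentile of the silent families it was 42, against 43.1%. The 5 that did not pass the stricter level were Orc1, Cdc6, Pola2, Pold2 and Rfc5. Of the 80 probe sets, 77 were above background, against 50.0% of all probe sets, and 61 passed the stricter level, against 29.2%.

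**Figure D2:**
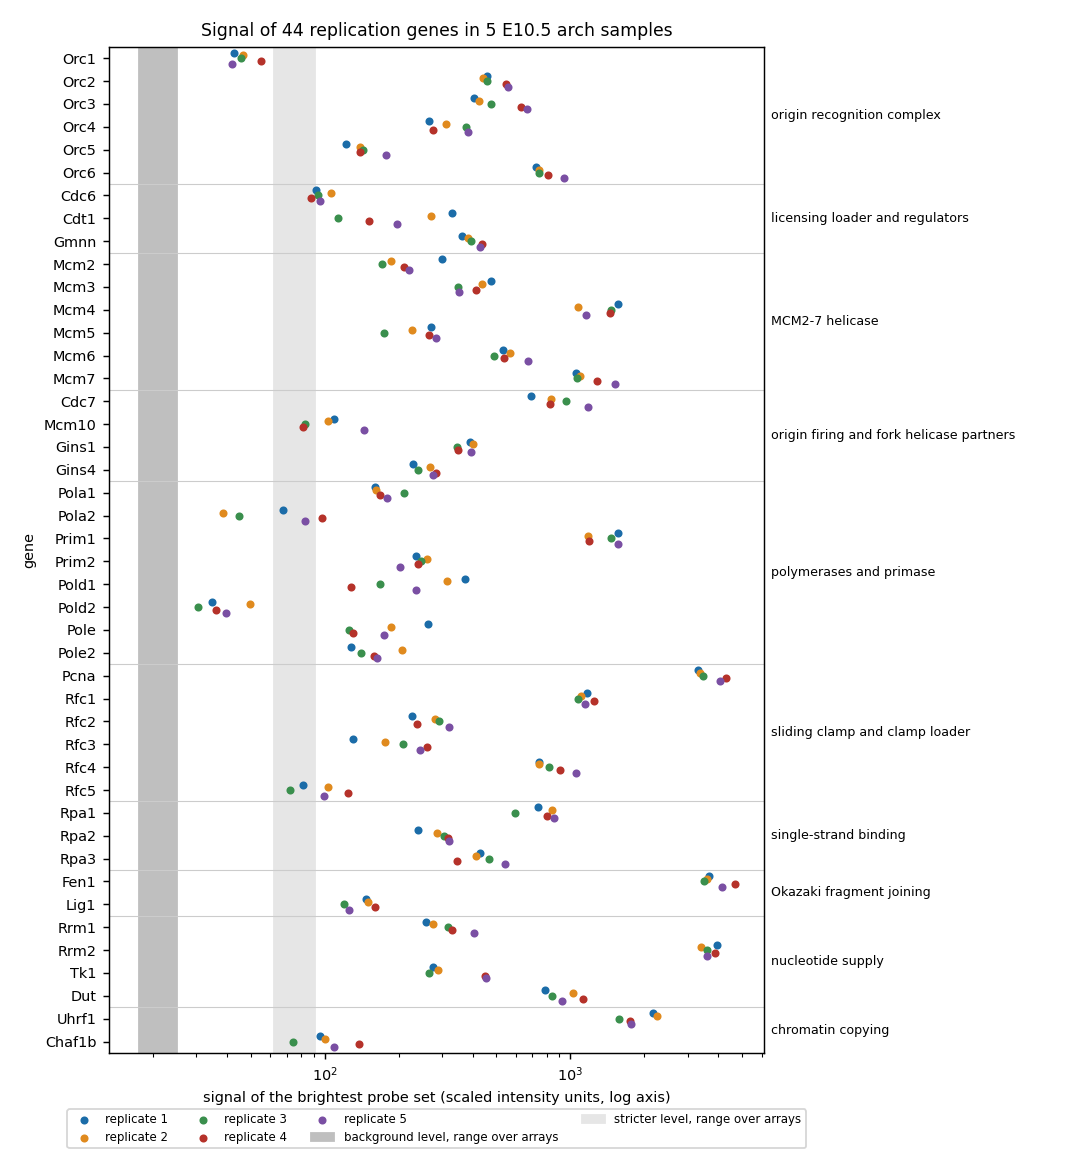
Signal of the brightest probe set of each of 44 genes (y axis, grouped by role) in replicates 1 to 5 (points, scaled intensity units on a log x axis), with the range of the background level (dark band, 17.5 to 24.98) and of the stricter level (light band, 62.4 to 91.2) over the arrays. Every point lies right of the dark band, and Orc1 and Pold2 lie left of the light band. Signals of different genes come from different probes and have no common scale.

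The origin recognition complex marks the sites where replication can begin. Orc1, the subunit that cells degrade and remake in each cycle, read 42.9, 46.3, 45.8, 55.1 and 41.9 in replicates 1 to 5. It was the steadiest subunit, with an SD of 0.15 log2 units, and passed with an excess of 1.16 ± 0.19 log2 units (SE, limma adjusted p = 6.66e-06). Orc3, a core subunit, varied most and read 405, 423, 473, 627 and 664. On brightest probe sets its value was highest in replicate 5, as it was for Orc2 (492 ± 55.9), Orc4 (323 ± 55.5), Orc5 (145 ± 20.5) and Orc6 (794 ± 90.4). Orc1 was the exception on these probe sets, with its highest value in replicate 4 and its lowest in replicate 5. Further probe sets of Orc3 and Orc4 were highest in replicate 5 or in replicate 3, and those of Orc2 in replicate 1 or in replicate 4.

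Cdc6 and Cdt1 load the MCM rings and geminin, encoded by Gmnn, holds Cdt1 back. Cdc6 read 92.2, 106, 93.8, 87.8 and 95.5, a spread of 1.21-fold from lowest to highest. Gmnn was as narrow, from 362 in replicate 1 to 438 in replicate 4. Cdt1 read 329, 271, 113, 152 and 198, so that replicate 1 stood 2.90-fold above replicate 3. A further Cdt1 probe set with a lower signal had the same order at its ends, with 128 in replicate 1 and 51.2 in replicate 3. The remaining Cdt1 probe set was not above background, with 1.72 to 4.07 on the 5 arrays.

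The helicase ring is built from Mcm2 to Mcm7, and all its genes passed at both levels. By brightest probe sets, Mcm2 varied most and read 299, 186, 170, 209 and 220. Mcm6 varied least on this measure and read 530, 568, 486, 539 and 675. The second Mcm6 probe set spread 1.914-fold from lowest to highest, against 1.755-fold for the brightest of Mcm2. Mcm3 stood at 406 ± 54.8, Mcm4 at 1340 ± 211, Mcm5 at 245 ± 44.8 and Mcm7 at 1199 ± 200. On the brightest probe sets replicate 3 held the lowest value of Mcm2, Mcm3, Mcm5 and Mcm6, replicate 2 that of Mcm4 and replicate 1 that of Mcm7. The probe sets of Mcm4, of Mcm6 and of Mcm7 did not share their lowest array. Mcm3 had 5 probe sets, and all 5 were lowest in replicate 3, where the most variable of those above the stricter level read 189 against 203 to 556 elsewhere.

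Cdc7, the kinase that fires loaded origins, read 693, 831, 957, 825 and 1177. Mcm10, which helps the helicase to start unwinding, was the most variable of its group by brightest probe sets and read 109, 103, 83.2, 81.6 and 144. A dimmer Cdc7 probe set, above background but not the stricter level, spread 1.938-fold (26.8 to 52.0), against 1.768-fold for the brightest of Mcm10. The GINS subunits were steadier. Gins1 read 389, 402, 344, 349 and 393, a span of 1.17-fold, and Gins4 lay between 229 and 283.

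Among the polymerases, Pold2 and Pola2 passed the background level only. Pold2, the small subunit of polymerase delta, read 34.8, 49.8, 30.5, 36.1 and 39.6 (excess 0.87 ± 0.21 log2 units, limma adjusted p = 0.000525). Pola2, the accessory subunit of polymerase alpha, read 67.4, 38.5, 44.8, 97.4 and 83.0. Pola2 was lowest in replicate 2, where Pold2 was highest.

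Pold1, the catalytic subunit of polymerase delta and the most variable gene of the whole set by brightest probe sets, read 372, 315, 168, 128 and 234. Pole, the catalytic subunit of polymerase epsilon, read 263, 186, 126, 130 and 175. On these probe sets replicates 1 and 2 were highest and replicates 3 and 4 lowest in both genes, with replicate 4 lowest for Pold1 and replicate 3 for Pole. The second Pold1 probe set, at 25.2 ± 10.4, was not above background (limma adjusted p = 0.464) and was highest in replicate 2 and lowest in replicate 5. The brightest Pold1 probe set is of the type whose probes can match other transcripts (name ending in _x_at), so its values may include those. The brightest probe sets of Mcm4, Fen1 and Rrm2 are of the same type.

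Prim2, the large primase subunit, was the steadiest of this group by brightest probe sets and read 235, 262, 247, 241 and 202. Prim1, the catalytic primase subunit, stood at 1393 ± 195 and Pole2, the second subunit of polymerase epsilon, at 159 ± 30.0. Pola1, the catalytic subunit of polymerase alpha, stood at 176 ± 20.4. It is an X-linked gene, and its signal of 168 in replicate 4 lay within the 161 to 210 of the other samples.

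Pcna, the ring that holds polymerases on DNA, read 3309, 3376, 3457, 4314 and 4048. It is opened by the RFC loader, whose subunits all passed the background level and, except for Rfc5 (96.2 ± 20.02), the stricter one. Rfc1, the large subunit, was the steadiest gene of the whole set by brightest probe sets and read 1169, 1107, 1076, 1249 and 1145. Its other probe sets spread further, 1.847-fold (153 to 283) and 1.435-fold, against 1.161-fold for the brightest. Rfc3 varied most in this group and read 130, 176, 208, 260 and 243. Its second probe set was also lowest in replicate 1 (115) and highest in replicate 4 (224). Rfc2 stood at 272 ± 38.9 and Rfc4 at 853 ± 132.

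RPA coats the single strands that the helicase exposes. By brightest probe sets, Rpa3 varied most of its genes and read 428, 413, 464, 347 and 542, and Rpa2 least, with 239, 286, 305, 318 and 320. The second Rpa2 probe set spread further than Rpa3, from 113 to 200. Rpa1 stood at 767 ± 106. All 3 genes were highest in replicate 5 on their brightest probe sets. The second probe set of Rpa1 was lowest there (126), and that of Rpa2 was highest in replicate 4 (200). Fen1, the nuclease that trims Okazaki fragments, read 3670, 3613, 3494, 4661 and 4126, and Lig1, the ligase that seals them, read 147, 150, 119, 160 and 125. Both were highest in replicate 4 and lowest in replicate 3.

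Ribonucleotide reductase supplies the deoxynucleotides. On its brightest probe set, the cycle-limited subunit Rrm2 was the steadiest gene of the supply group and read 3955, 3399, 3598, 3879 and 3589. This probe set is also of the _x_at type, and another Rrm2 probe set read 402, 476, 793, 441 and 386, with replicate 3 highest and a spread of 2.06-fold. Rrm1, the large subunit, stood at 318 ± 57.5 and was lowest in replicate 1 on both of its probe sets. Tk1, thymidine kinase of the salvage route, varied most by brightest probe sets and read 276, 290, 266, 447 and 451, so that replicates 4 and 5 did not overlap the others. Dut, which keeps uracil out of DNA, stood at 942 ± 138. Of the chromatin genes, Uhrf1, which guides maintenance methylation to new DNA, read 2167, 2254, 1573, 1744 and 1766. Chaf1b, a subunit of the histone chaperone CAF-1, read 95.6, 101, 74.3, 138 and 109.

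Probe sets of the same gene often read different levels. Of 25 genes with several probe sets, 22 (88.0%) had all of them above background, against 47.7% of all genes with several probe sets and at least 1 call. The exceptions were Cdt1, Pola2 and Pold1, with 1 probe set each that did not pass. Rrm2 gave means of 3684, 499 and 91.7, Uhrf1 of 1901 and 44.4, Cdc7 of 897 and 42.1, and Fen1 of 3913 and 368. The excess over background of a gene therefore belongs to its probe set and gives no ranking of the genes.

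**Figure D3:**
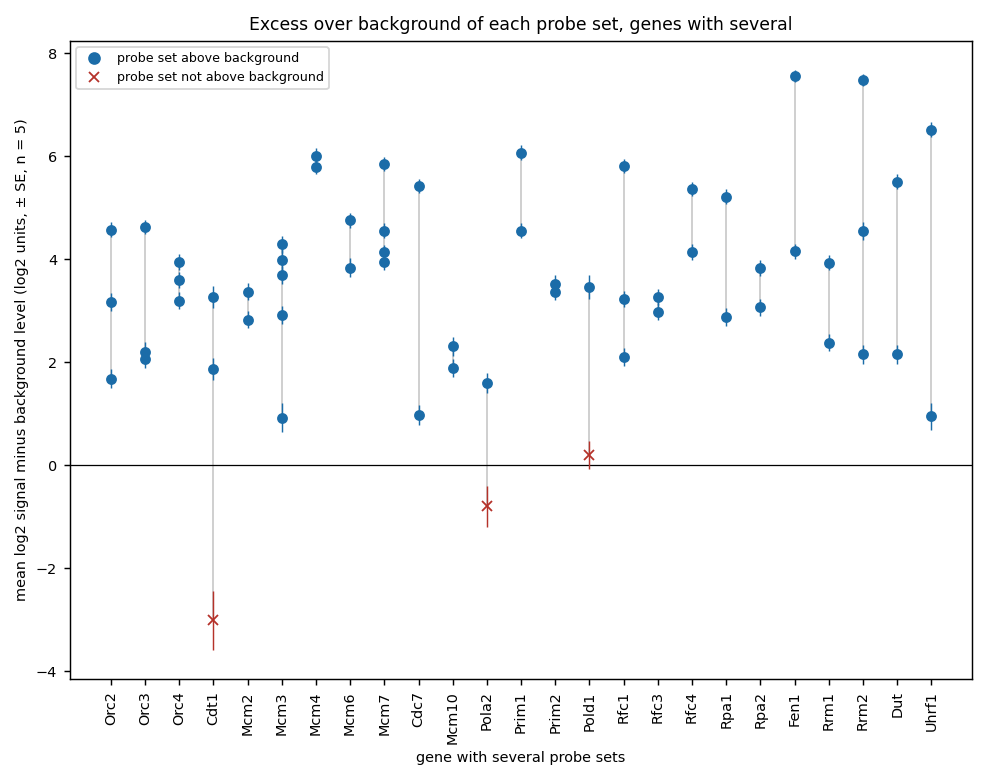
Mean log2 signal minus the background level (y axis, log2 units, ± SE, n = 5) of every probe set of the 25 genes with several probe sets (x axis), with circles for probe sets above background and crosses for those not above it. The 3 crosses belong to Cdt1, Pola2 and Pold1, and the probe sets of Cdt1, Uhrf1 and Rrm2 lie more than 5 log2 units apart.

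The last question was whether the genes differed between the 5 samples. On the brightest probe set, the median ratio of the highest to the lowest array was 1.44, beside 1.65 over all genes above background. The ratio exceeded 2 in 4 genes, namely Cdt1, Pola2, Pold1 and Pole, and lay below 1.3 in 8. The shares of all genes above background past these cuts were not counted, so these 2 counts have no background beside them. In an F test of each variance against the limma trend, 0 of 78 probe sets passed an adjusted p of 0.05, where 0.113% of all 11468 probe sets did. At an unadjusted p below 0.05 there were 5 (6.41%), against 5.23% of all, so the count lay near the background. They were the brightest Cdt1 probe set (variance 4.24 times the trend), the brightest of Pold1 (4.56 times), 2 of Mcm3 (5.91 and 5.21 times) and a dim probe set of Uhrf1 (3.43 times). The median ratio of variance to trend was 0.77, beside 0.89 over all tested probe sets. No gene had a sample far from the other 4 by Dixon's criterion, where 5.54% of all genes above background did. No group of genes by role had one either.

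**Figure D4:**
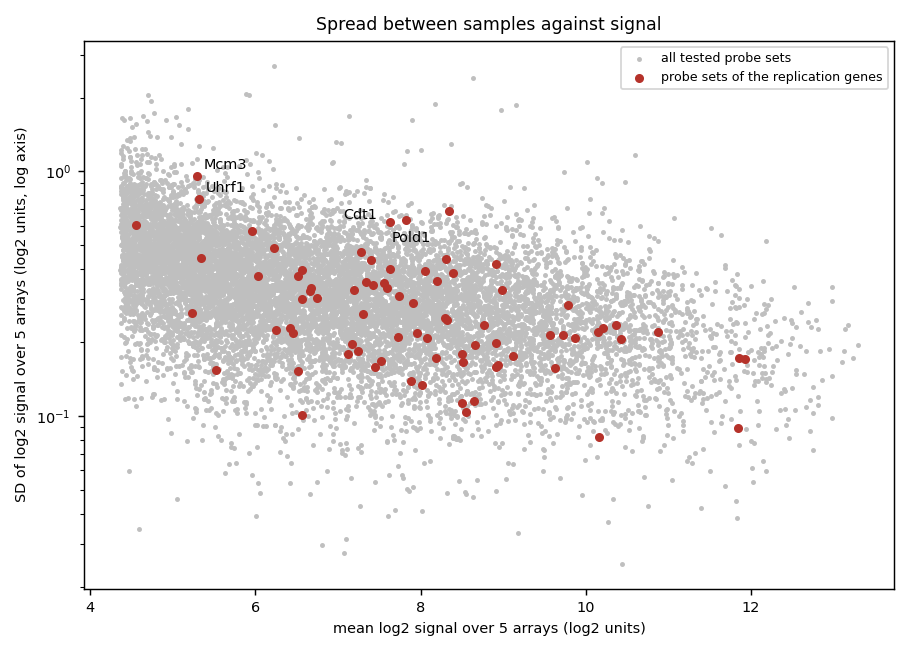
SD of log2 signal over 5 arrays (y axis, log axis) against mean log2 signal (x axis) for 11468 probe sets above the mean background level (grey) and for 78 probe sets of the replication genes (red). The red points lie within the grey cloud, and the 4 labelled genes hold the 5 probe sets with an unadjusted p below 0.05 (1 probe set labelled for each).

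The mean over the set shifted a little between samples, though not in the same way in every role group. The mean deviation from each gene's own average was -0.03, -0.01, -0.14, 0.04 and 0.14 log2 units in replicates 1 to 5, while over all genes above background it stayed between -0.05 and 0.03. Replicate 3 held the highest value of 1 gene of 44 (Pola1) and the lowest of 16 (36.4%, against 23.9% of all genes above background). Replicate 5 held the highest value of 17 (38.6%, against 22.7%) and the lowest of 2, Orc1 and Prim2. Replicate 1 held the lowest of 16 as well (36.4%, against 21.5%). The size and order of the shifts moved with the choice of probe sets. With plain probe sets only (38 genes) the means were -0.08, -0.02, -0.13, 0.13 and 0.10, and when probe sets were averaged per gene (43 genes) -0.06, 0.02, -0.12, 0.08 and 0.08, so that replicate 4 was then as high as replicate 5 or higher. By means replicate 3 was lowest in each. By medians over genes replicate 1 was lowest with plain probe sets (-0.110, against -0.101 in replicate 3) and with averaged probe sets (-0.110 against -0.090). On brightest probe sets the median was -0.095 in replicate 1 and -0.107 in replicate 3. The SD of the 5 means was 0.10 log2 units. No test was made of them, and they are given as a description of these samples.

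The role groups did not share 1 order. Subunits of the origin recognition complex averaged -0.19 in replicate 1 and 0.21 in replicate 5, and clamp and loader genes -0.23 and 0.18. The polymerases and primase averaged 0.14 in replicate 1 and -0.17 in replicate 3, and the MCM ring 0.15 and -0.20. Probe sets of 1 gene also disagreed on the order. Of 22 genes with at least 2 probe sets above the level on every array, 5 (Cdc7, Cdt1, Dut, Fen1 and Rfc3) had all of them highest in the same array and 8 had all of them lowest in the same array. These counts were not made over all genes. The order of the arrays given for a gene therefore belongs to the probe set that was read.

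**Figure D5:**
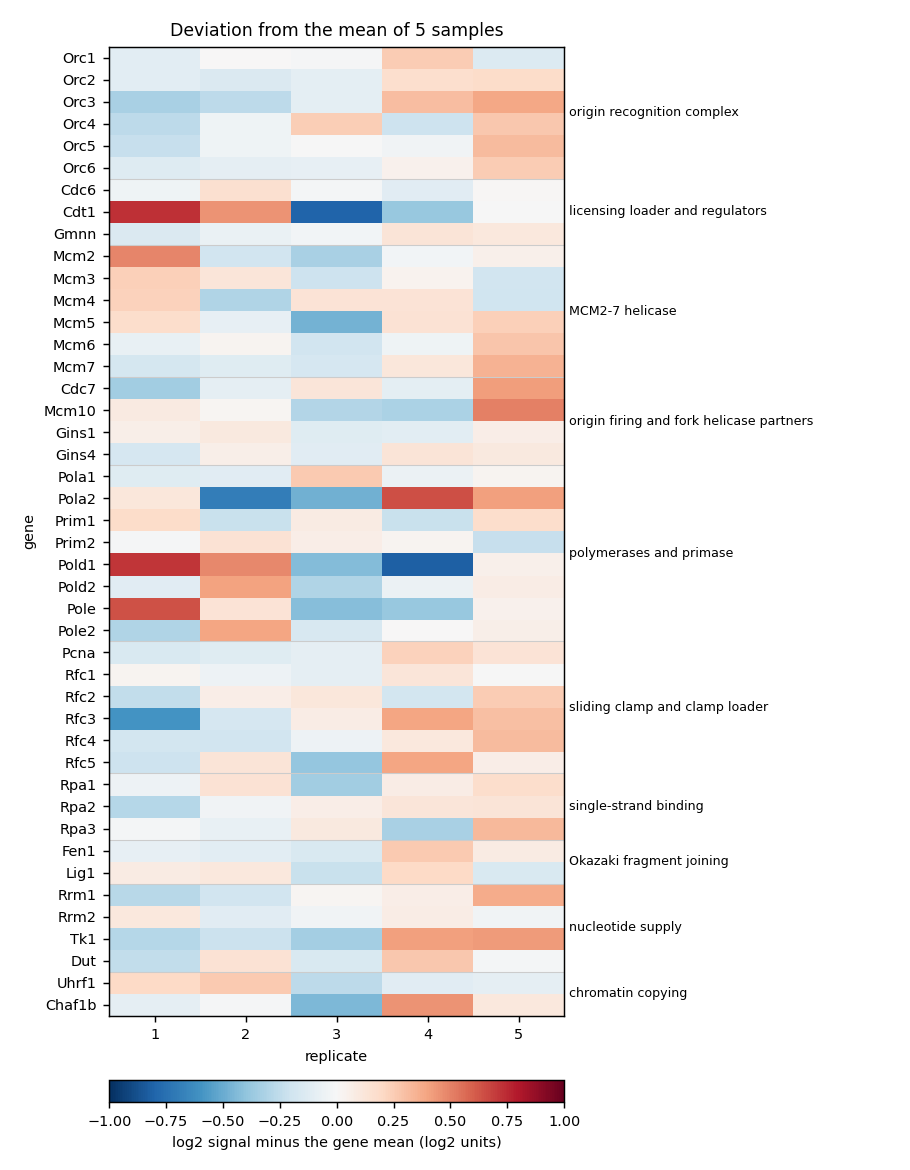
Deviation of the log2 signal of the brightest probe set from the gene's mean over 5 samples (colour, log2 units, blue below and red above) for 44 genes (rows, grouped by role) in replicates 1 to 5 (columns). Replicate 3 is mostly blue and replicate 5 mostly red, with Cdt1, Pold1 and Pole red in replicate 1.

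The summed signal of the 9 erythroid markers ran from 8680 in replicate 4 to 17350 in replicate 5, that of the 12 neuron markers from 3896 in replicate 4 to 7241 in replicate 3, and that of the 8 liver and yolk sac markers from 182 in replicate 4 to 1091 in replicate 5. The 8 endothelial markers ran from 761 in replicate 1 to 983 in replicate 4. The 8 leukocyte markers, none of them above background, summed to between 82.2 and 208. The 15 markers of arch mesenchyme and the second heart field ran from 7113 in replicate 4 to 8620 in replicate 1. The summed signal of the replication genes ran from 28170 in replicate 3 to 32450 in replicate 5. Such sums are weighted toward the brightest probe sets, such as those of Fen1, Pcna and Rrm2. The part of these cell types in the shifts of the replication genes was not tested.

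The wider replication and cell cycle lists, also chosen with earlier results of these data known, gave the following counts. Of 27 measured other replication genes, 23 (85.2%) were above background. The probe sets with the largest excess over background were those of the maintenance methyltransferase Dnmt1 (1931 ± 402), the histone chaperone subunit Supt16 (1494 ± 331) and the histone chaperone Nasp (827 ± 53.7). Tyms (23.3 ± 8.12), thymidylate synthase, Recql4 (23.3 ± 8.47), a helicase of origin firing, and Pold4 (21.8 ± 4.34), the smallest subunit of polymerase delta, had the smallest excess and were not called, nor was Mcm9. Of 16 genes of E2F and S-phase control, 13 (81.2%) were above background. The largest excess was that of the probe sets of the E2F partner Tfdp1 (1461 ± 107), cyclin A2, Ccna2 (1166 ± 209), and the ubiquitin ligase subunit Skp2 (641 ± 93.9). The 3 that were not were E2f3 (23.4 ± 6.44), Rbl2 (16.8 ± 7.22) and E2f4 (21.1 ± 16.2).

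All 28 measured mitosis genes were above background, as all 44 licensing and fork genes were. Both lists were chosen with earlier results of these data known. Topoisomerase Top2a (2358 ± 283), survivin, Birc5 (2113 ± 237), and the proliferation marker Mki67 (1410 ± 160) had the probe sets with the largest excess, and Ncapd2 of condensin (181 ± 79.5) and the kinases Aurka (123 ± 7.31) and Plk1 (56.3 ± 15.5) the smallest. The mitosis genes averaged -0.12, 0.02, -0.10, 0.08 and 0.12 log2 units in replicates 1 to 5, and the other replication genes -0.09, -0.07, -0.09, 0.16 and 0.09. At the stricter level 27 of 28 mitosis genes, 21 of 27 other replication genes and 10 of 16 control genes passed.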

How the data were processed

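The deposited table held intensity values, 1 linear signal per probe set and array, made by the authors with GCOS (Affymetrix software), per the submitters' processing notes; algorithm and settings were not given in the sources used here. All 5 deposited intensity columns share a mean of 150.1 after trimming 2% at each end. No detection calls were used here. Of 22690 probe sets, 64 controls, 691 with several genes and 1555 with none were left out of the tests. Symbols were updated by Entrez identifier with RefSeq (GRCm38.p6; 20351 matched). Values under 1 were set to 1 before taking log2.

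Detection used limma (version 3.58.1, R 4.3.3; lmFit, eBayes with trend and robust) on log2 signal minus the array's background level. The pattern for the 195 silent genes also took in Tradd, Trdmt1 and Trdn by name, and an alternative leaves them out. Variance was tested by F test against limma's trend for probe sets with a mean above the level. The brightest probe set stands for a gene's values. In simulated data of 20380 probe sets, 62% of those placed 0.5 log2 units over background were called and 100% at 1 unit. For 11543, the variance test called 55% at 3 times the SD and 87% at 6 times. Of the calls, 0.0759% were false in the detection test and 7.79% in the variance test. The simulated noise was normal and the background level the same on every array, unlike the real arrays, so these rates may be too favourable. Named per array were the most and the least variable gene of each role and genes that missed a level; in other lists, the 3 with the largest and smallest excess; other genes named were chosen after their values were seen. Members and lists were chosen with earlier results of these data known. The number of arrays limits the precision.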

Additional observations from a re-analysis of the deposited data

How the results depend on the processing

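All 44 genes stayed above background with a 90th percentile level, a floor of 16, quantile normalization, limma without trend and robust options, the brightest probe set alone, a filter on dim probe sets, without Tradd, Trdmt1 and Trdn, and without any replicate. It was 42 with a 99th percentile level, 39 with the wider name pattern, 43 with the mean of all probe sets and 38 of the 39 genes with plain _at probe sets; above background there were then 49 probe sets. In place of 3.94, the median excess was 4.275, 3.008, 2.073, 3.443 and 3.772 log2 units with the 90th and 99th percentile, the wider pattern, the mean of all probe sets and plain probe sets. Pold2 fell below the level at the 99th percentile (-0.063) and with the wider pattern (-0.998), as did Orc1 (-0.70) and Pola2 (-0.27). The 99th percentile is higher by construction, and the wider pattern gave a higher level on every array. Without each replicate in turn the median excess ran from 3.90 to 3.97, the genes stayed at 44 to 44 and the probe sets at 77 to 77. In the same fits the SD of the mean shift ran from 0.07 to 0.12, and the probe sets more variable than the trend from 0 to 0. The count of variable probe sets was also 0 under the other alternatives, except the brightest probe set alone and the mean of all probe sets, for which it was not computed. No paired analysis was possible because there is 1 group.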
